A study of Arabidopsis thaliana with 5 samples.

Results

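Membrane transporter genes were read on 5 Affymetrix arrays hybridised with RNA from Arabidopsis thaliana, labelled as secondary meristem of plants that were clipped at bolting to mimic browsing by mammals. The 3 Columbia arrays and the 2 Landsberg erecta arrays all came from clipped plants, sampled on the day after clipping, and the series' design text states that these ecotypes were picked for their different compensation after damage. The ecotypes were therefore compared in the clipped state, and how either responded to clipping was not analysed here. All 5 samples shared 3 days of cold and a cycle of 16 h light and 8 h dark. The labels call the arrays biological replicates without saying how many plants each pools, so p-values measure the spread between these arrays. Genes were chosen by symbol from 15 transporter and aquaporin families, and each was represented by its probe set with a single annotated gene. The rule gave 17 genes out of 13356 named ones. They were 14 SWEET genes, 2 ZIP genes and 1 NRT2 gene. The other 12 families, among them the ABC transporters, the ammonium, phosphate and sulfate transporters, the amino acid permeases and all aquaporins, had 0 members through the annotation used here and were not analysed here. What follows is thus mainly an account of the SWEET sugar carriers.

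SWEET proteins are bidirectional carriers that let sugars cross a membrane down their concentration gradient, in contrast to proton-coupled sugar transporters such as the STP and SUC families. Members of clades I and II mostly carry hexoses, members of clade III carry sucrose and, for some, gibberellins, and members of clade IV sit in the vacuolar membrane. In shoots they release sucrose from leaf cells ahead of phloem loading and supply flowers, nectaries, pollen and apices. ZIP proteins carry zinc and other metal ions, and NRT2 proteins take up nitrate at low external supply.

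Values are given as deposited log2 signals. Because probe sets differ in brightness for reasons other than transcript number, the level of one gene was not set against that of another. Whether the probes bind transcripts of both ecotypes equally well was not tested, so ecotype differences below are differences in signal. The lowest log2 value of the table, 2.15, was common to the 5 arrays, with 24.4% to 25.2% of an array's probe sets on it, so values there have no order. Of the 17 genes, 5 held 1 value on all arrays (29.4%, against 27.8% of all 22746 probe sets), 4 of them at the shared minimum. The other 12 varied. In 11 of these 12, at least 2 arrays had an identical value to 9 decimals, against 54.9% of the varying probe sets, and in all 11 a repeated value was the median of the 5 arrays, as in 99.1% of the varying probe sets with a tie. Landsberg erecta replicate 1 sat exactly on that median for 9 of the 12 genes and Landsberg erecta replicate 2 for 7, against 40.6% and 38.1% of the varying probe sets. Columbia replicates 1 to 3 did so for 4, 6 and 2 genes. Ties within an ecotype make its spread look smaller than it may be, and an SD is left out below where the arrays of an ecotype shared 1 value. In SWEET3, SWEET8, SWEET11, SWEET13, SWEET14 and SWEET17, each repeated value was on 1 array of each ecotype. Such ties can make the ecotypes look closer than they may be. Each gene had a single probe set, and none of the 17 was of a type that can bind several genes.

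**Figure D1:**
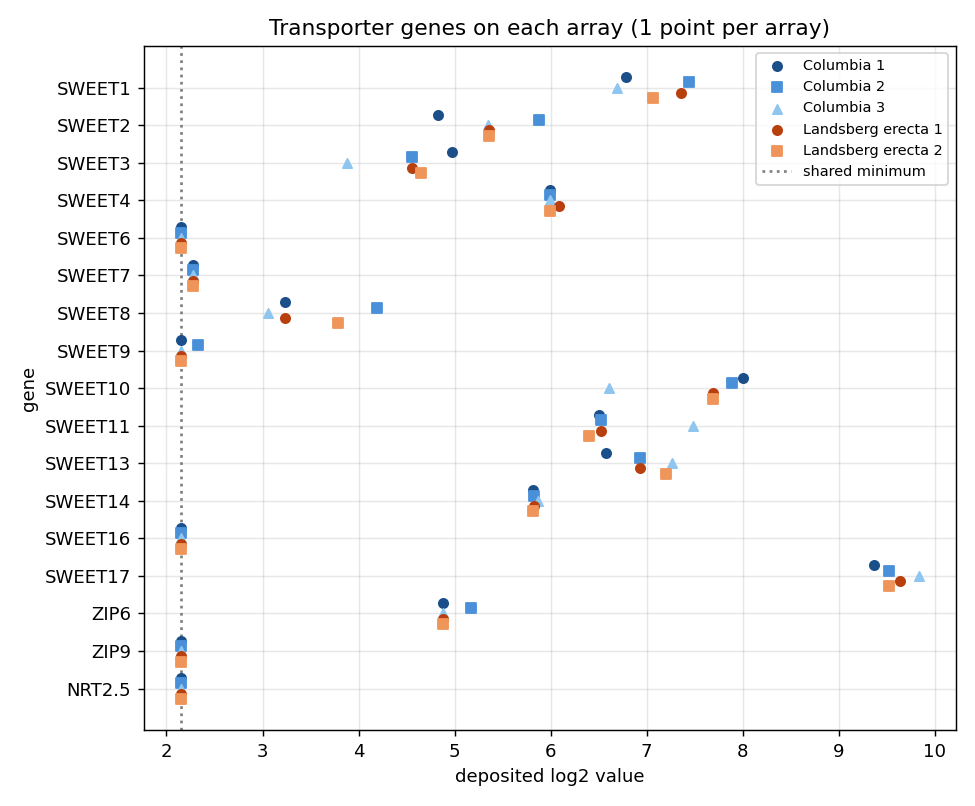
Deposited log2 value (x axis) of each of the 17 transporter genes (y axis) on each of the 5 arrays, 1 point per array, blue for Columbia and orange for Landsberg erecta, with the shared minimum of 2.15 as a dotted line. SWEET6, SWEET16, ZIP9 and NRT2.5 lie on that line on every array, the 5 points of SWEET7 coincide at 2.28, and for none of the other genes do all blue points lie to one side of all orange points.

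Among the clade I genes, SWEET1, which encodes a glucose carrier of the plasma membrane, had log2 values of 6.79, 7.44 and 6.70 on Columbia replicates 1 to 3 and 7.36 and 7.06 on Landsberg erecta replicates 1 and 2. Columbia replicate 2 was the highest and Columbia replicate 3 the lowest of the 5, so that the Landsberg erecta arrays lay inside the Columbia range. The SWEET1 means of 6.97 ± 0.41 (SD, n = 3) for Columbia and 7.21 ± 0.21 (SD, n = 2) for Landsberg erecta differed by -0.24, with a 95% interval from -1.15 to 0.68. Leaving out single arrays moved this difference between -0.47 (without Columbia replicate 2) and -0.09 (without Landsberg erecta replicate 1). SWEET2, a glucose carrier of the vacuolar membrane known from roots, had 4.83, 5.88 and 5.35 in Columbia, and each Landsberg erecta array had 5.35. Columbia replicates 1 and 2 lay about equally far below and above the other 3 arrays, which left a difference of 0.0013 between the ecotype means and a range of 1.05 over the arrays. SWEET3 had 4.97, 4.56 and 3.88 in Columbia and 4.56 and 4.66 in Landsberg erecta. Columbia replicate 3 was lowest by 0.68, and the ecotypes overlapped. The SWEET3 difference was -0.14 with a 95% interval from -1.31 to 1.04. It was -0.39 without Columbia replicate 1 and turned to 0.16 without Columbia replicate 3.

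Of the 4 clade II genes measured, SWEET6 held the shared minimum and SWEET7 a value of 2.28 on every array. SWEET4, a hexose carrier of the plasma membrane active around veins, had 5.99 on all 3 Columbia arrays and on Landsberg erecta replicate 2, and 6.09 on Landsberg erecta replicate 1. The Columbia arrays differed by 0.0002 at most. The SWEET4 difference of -0.05 had a 95% interval from -0.16 to 0.06. SWEET8, required in anthers for the patterning of the pollen wall, had 3.24, 4.19 and 3.06 in Columbia and 3.24 and 3.79 in Landsberg erecta. Columbia replicate 2 was highest and Columbia replicate 3 lowest, and the ecotype means of 3.50 ± 0.61 (SD, n = 3) and 3.51 ± 0.39 (SD, n = 2) differed by -0.02, with a 95% interval from -1.42 to 1.39. That sign changed under both other scalings of the arrays.

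The 5 measured clade III genes, whose products carry sucrose, held both the widest range over the arrays among the 12 varying genes (SWEET10) and the narrowest (SWEET14). SWEET10, which is induced in the shoot apex at the transition to flowering, had 8.01, 7.89 and 6.61 on Columbia replicates 1 to 3 and 7.69 on both Landsberg erecta arrays. Columbia replicate 3 was lowest by 1.08, while the other Columbia arrays lay above both Landsberg erecta arrays. The SWEET10 difference was -0.19 with a 95% interval from -1.83 to 1.45. Without Columbia replicate 3 it turned to 0.26 and the ecotypes no longer overlapped (limma adjusted p = 1), as for 18.2% of the varying probe sets in that setting. SWEET11, which exports sucrose from phloem parenchyma cells ahead of loading, had 6.50, 6.53 and 7.49 in Columbia and 6.53 and 6.40 in Landsberg erecta. Here Columbia replicate 3 was highest by 0.96 and the other 4 arrays stayed within 0.13 of each other. The SWEET11 means of 6.84 ± 0.56 (SD, n = 3) for Columbia and 6.46 ± 0.09 (SD, n = 2) for Landsberg erecta differed by 0.38, with a 95% interval from -0.81 to 1.57. Without Columbia replicate 3 the difference was 0.05. This was the largest difference of ecotype means among the 17 genes, and 1 array carried most of it.

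SWEET13 and SWEET14 encode carriers of sucrose and gibberellin with a joint role in anthers. SWEET13 had 6.58, 6.93 and 7.27 in Columbia and 6.93 and 7.20 in Landsberg erecta. Its lowest and highest arrays were Columbia replicates 1 and 3, and the means of 6.93 ± 0.34 (SD, n = 3) and 7.06 ± 0.19 (SD, n = 2) differed by -0.14, with a 95% interval from -0.92 to 0.64. SWEET14 stayed within 0.05 over all arrays, between 5.82 and 5.87. The ecotype difference of SWEET14 was 0.02 with a 95% interval from -0.04 to 0.07. SWEET9, the sucrose exporter of nectaries, sat at the shared minimum on 4 arrays and at 2.33 on Columbia replicate 2.

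SWEET10 and SWEET13 (AT5G50790 and AT5G50800) are direct neighbours in the RefSeq gene order of assembly TAIR10.1, and no other pair of the 17 genes is. On Columbia replicate 3, SWEET10 had its lowest value and SWEET13 its highest, and on Columbia replicate 1, SWEET10 had its highest value and SWEET13 its lowest. The Landsberg erecta arrays lay between these extremes for both genes. Genes that are not neighbours did the same. SWEET3 was highest on Columbia replicate 1 and lowest on Columbia replicate 3, and SWEET17 was lowest and highest on these arrays.

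In clade IV, SWEET16 held the shared minimum on every array. SWEET17, a fructose carrier of the vacuolar membrane, had 9.37, 9.52 and 9.83 in Columbia and 9.64 and 9.52 in Landsberg erecta. Its lowest and highest arrays were both Columbia. The means of 9.57 ± 0.24 (SD, n = 3) and 9.58 ± 0.08 (SD, n = 2) differed by -0.01 with a 95% interval from -0.52 to 0.51, and that sign changed when array medians were made equal.

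Outside the sugar carriers little variation was measured. NRT2.5, a high-affinity nitrate transporter of nitrogen-starved plants, and ZIP9, a gene induced by zinc deficiency, were at the shared minimum on all 5 arrays. ZIP6 had 4.88 on 4 arrays and 5.17 on Columbia replicate 2, a difference of 0.10 between the ecotypes with a 95% interval from -0.25 to 0.45. The minimum gives no level for NRT2.5 and ZIP9, and no detection calls were available to tell whether the low values of SWEET7 and SWEET9 were above background.

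Clipped Columbia and clipped Landsberg erecta were not told apart by any of the 17 genes. By limma with Benjamini-Hochberg adjustment over all probe sets, 0 were higher in Columbia and 0 were lower there, where 0% of the 22746 were called in either direction, and the adjusted p was 1 for each of the 17. At an unadjusted limma p under 0.05 the count was also 0 of 17, against 1.78% of all probe sets, a background at which 17 genes would seldom give a call. The groups overlapped for all 12 varying genes, where 9.47% of the varying probe sets did not overlap. A value shared by arrays of both ecotypes counts as overlap. The mean of 5 of the 12 was higher for Columbia and that of 7 for Landsberg erecta, and the median difference was -0.01, beside 0.0039 over all varying probe sets. The sugar carriers had a median of -0.0025 over 14 genes and the 2 metal carriers of 0.05. For 6 of the 12 genes (SWEET4, SWEET9, SWEET13, SWEET14, SWEET17 and ZIP6) the 95% interval excluded a 2-fold difference in either direction, and for the other 6 (SWEET1, SWEET2, SWEET3, SWEET8, SWEET10 and SWEET11) it did not. Over all varying probe sets, 85.8% had an interval that excluded a 2-fold difference. The narrow intervals of SWEET4, SWEET9 and ZIP6 rest on values tied within an ecotype. SWEET14 had no tie within an ecotype and a range of 0.05 over all arrays. Without Landsberg erecta replicate 2, SWEET4 was called higher in Landsberg erecta (difference -0.10, limma adjusted p = 0.000604), a setting that called 4.11% of all probe sets and in which the lone Landsberg erecta array was assumed to vary like 3 Columbia arrays that differed by 0.0002.

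**Figure D2:**
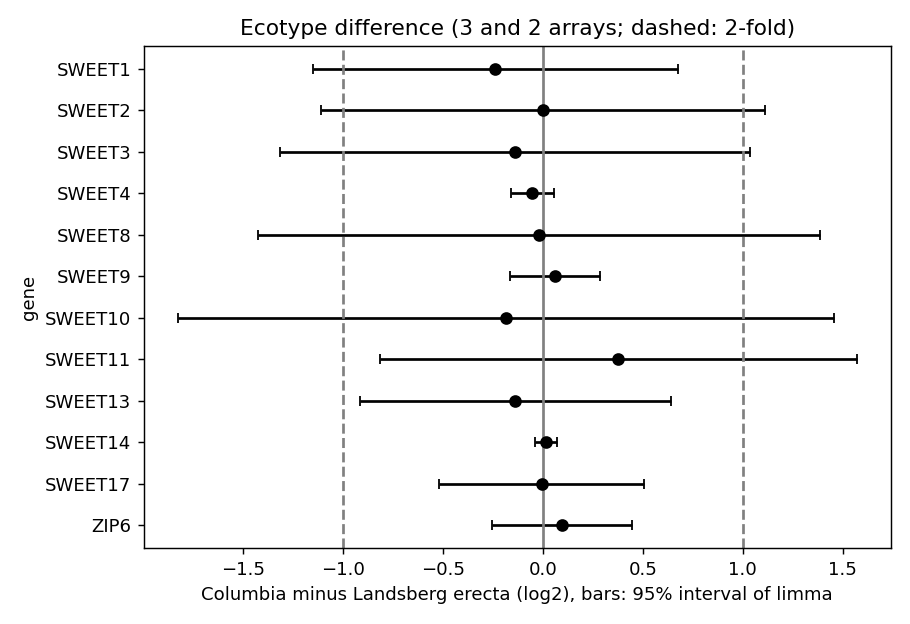
Columbia minus Landsberg erecta difference (x axis, log2) of the 12 genes that varied between arrays (y axis), with the 95% interval of limma as bars and a 2-fold difference as dashed lines. Every interval crosses 0, and those of SWEET1, SWEET2, SWEET3, SWEET8, SWEET10 and SWEET11 cross a dashed line.

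Green tissue markers and RNA controls differed along with the ecotypes. The green tissue markers RCA, which encodes Rubisco activase, and LHCB4.1, a light-harvesting protein, were the 2 measured of 7, and the log2 of their summed level was 15.23 to 15.27 on the Columbia arrays and 15.05 to 15.10 on the Landsberg erecta arrays. RCA and LHCB4.1 were higher in Columbia by 0.17 and 0.20, and limma called neither after adjustment. Neither marker overlapped between the ecotypes, as for 9.47% of the varying probe sets. The anther markers AMS and EMS1 and the wall marker GUT2 did overlap. The GAPDH control had a log2 ratio of its 3 prime to its 5 prime probe set of 0.89 to 0.98 in Columbia and 1.22 to 1.25 in Landsberg erecta, and the 25S ribosomal RNA control had 7.77 to 8.17 and 6.53 to 7.16. Their part in the ecotype differences above was not tested. In bulk tissue, fewer cells of a type and less RNA per cell cannot be told apart. Of 12 markers of shoot and axillary meristems, the 3 measured, LAS, UFO and CLV3, were at the shared minimum on all arrays. The minimum gives no level, so these markers neither bear out the labelled tissue nor go against it. No phloem (0 of 6) or epidermis (0 of 6) marker was named through the annotation used here. That annotation leaves 8794 probe sets of the table without a gene, controls included. A marker counted as not measured may therefore be on the array under a probe set without a name.

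Several SWEET genes differed widely between arrays of the same ecotype. The arrays spanned at least 2-fold for 5 of the 17 genes (29.4%), namely SWEET2, SWEET3, SWEET8, SWEET10 and SWEET11, against 5.19% of all probe sets, or for 41.7% of the varying genes against 7.19% of the varying probe sets. The range of SWEET10, 1.40, was wider than that of 96.9% of the varying probe sets, and the ranges of SWEET8 (1.13), SWEET3, SWEET11 (1.09) and SWEET2 (1.05) were wider than those of 93.7% to 94.8%. At the other end, SWEET14 had a smaller range than most, exceeding 8.6% of the varying probe sets. For SWEET2, SWEET3, SWEET8 and SWEET10 both the highest and the lowest array were Columbia, and for SWEET11 the highest was Columbia and the lowest Landsberg erecta replicate 2. The Columbia arrays alone spanned 0.98 for SWEET11. Over the 2 Landsberg erecta arrays, the widest range among these 5 genes was 0.55, for SWEET8. A range over 2 arrays tends to be smaller than one over 3, and the Landsberg erecta arrays were tied for SWEET2 and SWEET10. The median range was 0.72 over the 12 varying genes and 0.37 over all varying probe sets. Members of one family can share expression sites, so the 5 genes are not independent counts, and nothing particular to the family is read from them.

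**Figure D3:**
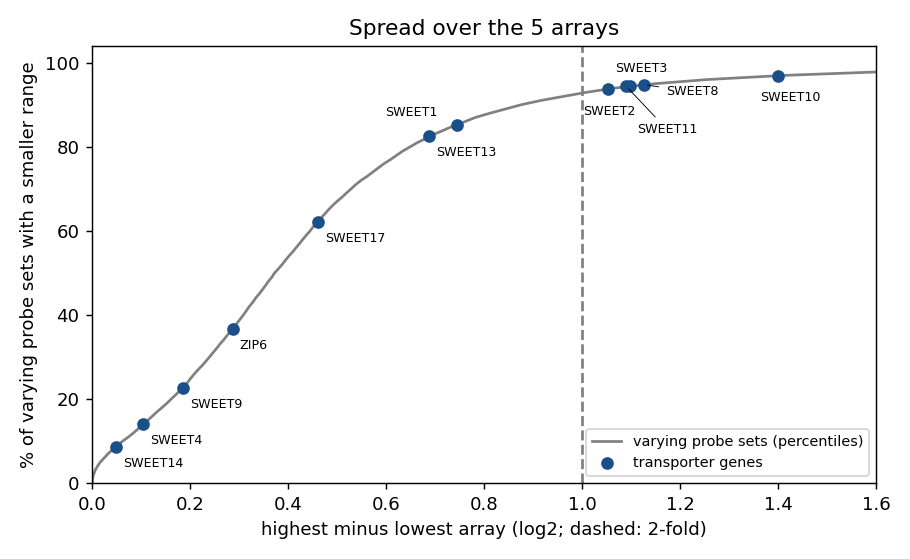
Highest minus lowest array on the log2 scale (x axis) of the 12 varying transporter genes, placed on the percentile curve of all varying probe sets (y axis, percent with a smaller range), with a 2-fold range as a dashed line. SWEET2, SWEET3, SWEET8, SWEET10 and SWEET11 lie to the right of the line, SWEET10 at 96.9%.

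Columbia replicate 3 was the array most often at an extreme. It was the single highest or single lowest array for 9 of the 12 varying genes (75%), against 41.2% of the varying probe sets. SWEET11, SWEET13, SWEET14 and SWEET17 were highest there, whereas SWEET1, SWEET3, SWEET4, SWEET8 and SWEET10 were lowest. For SWEET4 that lowest value lay 0.0002 below the next array, and for SWEET14 the highest lay 0.04 above. Against the mean of the other 4 arrays, the log2 value on Columbia replicate 3 differed by 1.00 for SWEET11, by -1.21 for SWEET10 and by -0.81 for SWEET3. Columbia replicate 2 was the single highest array for 5 genes, SWEET1, SWEET2, SWEET8, SWEET9 and ZIP6, and the lowest for 0. Without Columbia replicate 3, 1 gene, SWEET2, still spanned at least 2-fold, against 2.54% of all probe sets. Without Columbia replicate 1 or 2 the count was 3 in each case, with SWEET10 and SWEET11 in both, against 4.23% and 3.73% of all probe sets.

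**Figure D4:**
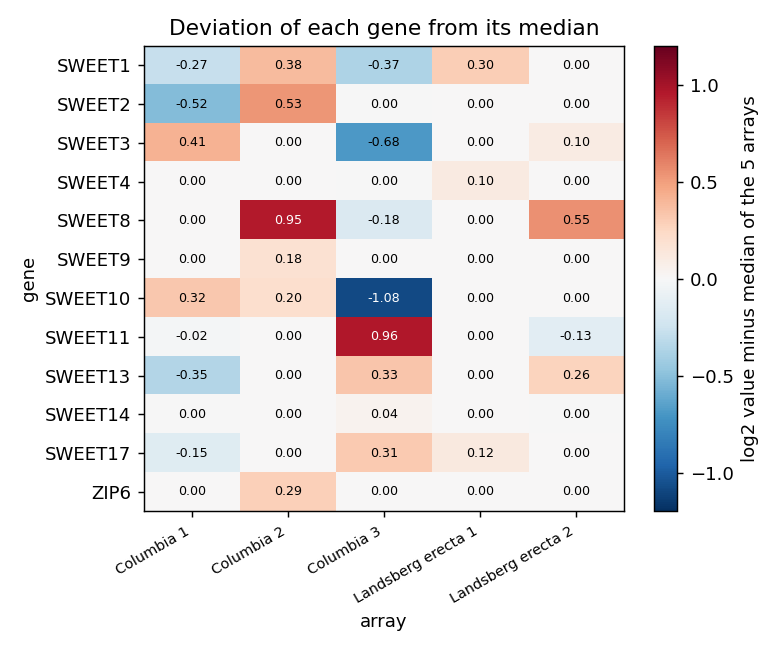
Log2 value minus the median of the 5 arrays (colour and printed number) for the 12 varying genes (rows) on each array (columns). The strongest colours are SWEET10 at -1.08 and SWEET11 at 0.96 on Columbia replicate 3 and SWEET8 at 0.95 on Columbia replicate 2, and many Landsberg erecta cells are exactly 0.

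Columbia replicate 3 was also an extreme array for some markers of other tissues. The 2 measured of 7 anther and pollen markers were lowest there, by 1.02 (AMS) and 1.59 (EMS1). The anther gene SWEET8 was lowest there by 0.18. AMS, a regulator of tapetum development, had 6.51, 6.76 and 4.95 in Columbia and 5.97 and 6.96 in Landsberg erecta, and EMS1, a receptor kinase that specifies the tapetum, had 4.93, 4.93 and 3.34 in Columbia and 4.93 and 5.74 in Landsberg erecta. The log2 summed level of the anther markers was 5.36 to 7.12 on the Columbia arrays and 6.54 to 7.47 on the Landsberg erecta arrays. SWEET13 and SWEET14, which also act in anthers, were highest on Columbia replicate 3, by 0.07 and 0.04, and so went the other way. GUT2, which acts in making the xylan of secondary walls, was the 1 measured of 9 xylem and wall markers. It had 5.79, 6.88 and 8.27 in Columbia and 7.68 and 8.01 in Landsberg erecta. GUT2 was highest on Columbia replicate 3 by 0.26 and lowest on Columbia replicate 1. Without Columbia replicate 3 the range of GUT2 was still 2.22. SWEET11 was also highest on Columbia replicate 3, by 0.96. The single measured of 7 root markers, EXPA7, was between 2.15 and 2.22. The part of tissue makeup in the SWEET values was not tested.

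**Figure D5:**
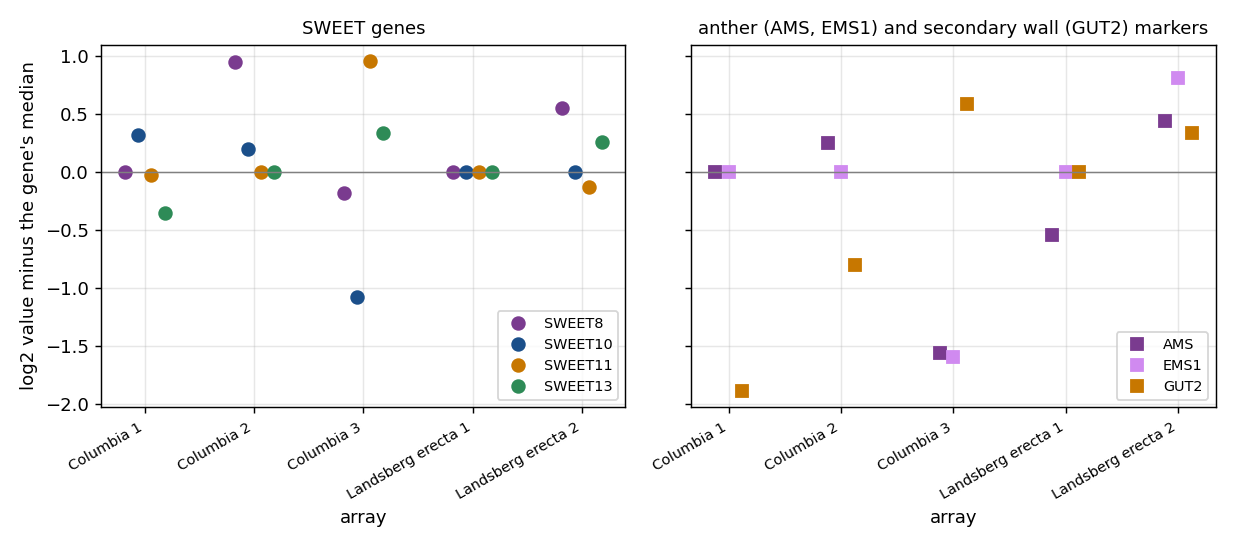
Log2 value minus the gene's own median (y axis) on each array (x axis) for 4 SWEET genes on the left and for the anther markers AMS and EMS1 and the wall marker GUT2 on the right, 1 point per array. On Columbia replicate 3, SWEET10, AMS and EMS1 lie more than 1 below their medians, and SWEET11 and GUT2 lie above theirs. GUT2 lies farthest from its median on Columbia replicate 1, where it is lowest.

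Other transporter families were listed by symbol for comparison. Of 27 such genes with a named probe set, 11 held 1 value on all arrays (40.7%, against 27.8% of all probe sets), 10 of them at the shared minimum. By limma with Benjamini-Hochberg adjustment 0 were called in either direction (0 also at an unadjusted limma p under 0.05). A single gene (3.7%, against 5.19% of all probe sets) spanned at least 2-fold, OCT5 of the organic cation transporters. Its lowest value, 3.85 on Columbia replicate 2, and its highest, 4.94 on Columbia replicate 3, enclosed the 4.36 and 4.60 of Landsberg erecta. Landsberg erecta replicate 2 was the array most often highest among the 16 that varied, for 7 genes (43.8%, against 21% of the varying probe sets). Among these were TMT1 and TMT2, sugar transporters of the vacuolar membrane, and VHA-A2 and VHA-A3, membrane subunits of the vacuolar proton pump. OCT4 was another, with a range of 0.0007 over all arrays. Of the same families, TMT3 was highest on Columbia replicate 2 and VHA-A1 on Columbia replicate 3. TMT1 had 8.15, 8.08 and 8.07 in Columbia and 7.85 and 8.39 in Landsberg erecta, so that both extremes were Landsberg erecta. TMT2 had 7.60, 7.59 and 7.84 in Columbia and 7.35 and 7.90 in Landsberg erecta, with the same outermost arrays. VHA-A2 had 7.49, 7.52 and 7.70 in Columbia and 7.40 and 7.95 in Landsberg erecta, again with Landsberg erecta outermost on both sides. VHA-A3 had 9.21, 9.05 and 9.25 in Columbia and 9.10 and 9.55 in Landsberg erecta, so that its lowest array was Columbia replicate 2. The ecotype differences of TMT1, TMT2, VHA-A2 and VHA-A3 were -0.02, 0.05, -0.11 and -0.15, with 95% intervals that excluded a 2-fold difference. SWEET17, likewise of the vacuolar membrane, was on both Landsberg erecta arrays inside its Columbia range. Of the 16 varying genes of the list 1 did not overlap between the ecotypes, against 9.47% of the varying probe sets. This gene, GLR3.6, a glutamate receptor-like channel, had 4.73, 4.73 and 4.55 in Columbia and 4.83 and 4.78 in Landsberg erecta, a difference of -0.13 (limma adjusted p = 1).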

How the data were processed

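The authors deposited log2 values per probe set, with array medians of 5.44 to 5.50; the background correction, normalization and summarization behind them are not given in the sources used here. Of 22810 probe sets, 64 controls were left out. Gene names came from the platform annotation (13513 probe sets with 1 gene, 503 with several, from which none was named), of which 13436 matched RefSeq names of assembly TAIR10.1 by gene identifier; no coordinates are given, and RefSeq positions served only to find neighbouring genes. Differences were fitted with limma 3.58.1 in R 4.3.3 (lmFit, eBayes, 3 and 2 arrays, no covariate, no filter; prior 0.359 degrees of freedom beside 3 residual ones), p-values being adjusted by Benjamini-Hochberg across 22746 probe sets (threshold 0.05); the fit was tested on simulated data. The members and lists were chosen with earlier results of these data known. Named genes were to be all members of classes with at most 6, and of the SWEET genes the 4 brightest, the 4 with the widest range and the 2 with the smallest p per direction; SWEET2, SWEET6, SWEET7, SWEET14 and SWEET16 are named beyond that rule, so that every member is accounted for. The comparison list left out 1 symbol match that is no transporter, and a formate dehydrogenase gene sharing the symbol of an epidermis marker was not counted as that marker. Of the other transporters and markers, those named were chosen after their values were seen. The labels name no batch. Alternatives were quantile normalization, equal array medians, filters at the 25th and 50th percentile of the mean, no constant probe sets, array weights, a trended and a robust eBayes, the replicate block, other thresholds, each array left out, other symbols and probe set choices, and, added after the data were seen, a 1.5-fold range. Plots used matplotlib 3.10.9 (Python 3.11.15).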

Additional observations from a re-analysis of the deposited data

How the results depend on the processing

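The number of members called stayed at 0 in both directions under every setting with all 5 arrays, including unadjusted p under 0.05; over all probe sets that last setting gave 265 with Columbia higher and 141 with Landsberg erecta higher. With single arrays left out, members called higher in Landsberg erecta ranged from 0 to 1 (SWEET4), all probe sets from 0 to 356 and from 0 to 658, members without overlap from 0 to 2 (against 18% to 18.6% of the varying probe sets without a Columbia array, and 46.2% and 40.6% without Landsberg erecta replicate 1 and 2), and members spanning at least 2-fold from 1 to 5. The 2 without overlap came without Columbia replicate 2 (SWEET1 and SWEET2). Members spanning at least 2-fold were 2 without probe sets below the 50th percentile, which removes genes from the count, and 7 at a 1.5-fold range, against 18% of all probe sets. The nitrogen class, a gene at the shared minimum, moved to 0.0216 with equal array medians, by construction. The filters and the removal of constant probe sets left no nitrogen gene, and the 50th percentile no metal gene. Differences that changed sign were SWEET8 at 0.0026 under quantile normalization, 0.0031 with equal medians, 0.0611 with array weights and 0.1989 with the replicate block, SWEET17 at 0.0165 with equal medians, and SWEET3 and SWEET10 at 0.1586 and 0.2616 with the replicate block. With single arrays left out, differences ranged from -0.3644 to 0.2573 for SWEET8, -0.1339 to 0.0963 for SWEET17, -0.3900 to 0.1586 for SWEET3, -0.4380 to 0.2616 for SWEET10, -0.2628 to 0.2635 for SWEET2, -0.4703 to -0.0886 for SWEET1, 0.0537 to 0.5450 for SWEET11, -0.3087 to 0.0353 for SWEET13 and -0.1033 to -0.0001 for SWEET4. The replicate block gives Columbia replicate 3 a term of its own and so drops it. It changed no call; replicate numbers are not said to pair the arrays, and across probe sets, same-numbered arrays' deviations from their ecotype mean had correlations of -0.02 (replicate 1) and 0.08 (replicate 2). Where the construction does not show it, the cause was not tested. With 5 arrays and a shared minimum, small differences and dim genes are beyond reach.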
